A study of Homo sapiens with 16 samples.

Results

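The accessible sites of 5 gene loci, IGF2R, CHST11, LZTS1, DGKZ and PIEZO1, were followed in a pair of human T-cell acute lymphoblastic leukaemia lines, MOLT4 and DND41. On the hg19 build, the windows were chr6:160385000-160535000 for IGF2R, chr12:104840000-105160000 for CHST11, chr8:20100000-20170000 for LZTS1, chr11:46345000-46420000 for DGKZ and chr16:88775000-88885000 for PIEZO1. Overlapping peaks of the 16 libraries (by 1 base or more) were joined, and a joined region inside a window is called a site. The 5 windows held 92 of the 131357 regions: 18 at IGF2R, 32 at CHST11, 11 at LZTS1, 15 at DGKZ and 16 at PIEZO1. The loci were chosen because they lost peaks with treatment in these same libraries. Every difference between treated and control cells below is therefore a description without a test. Differences between lines and between times were tested.

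The assay was ATAC-seq, which marks open chromatin by the insertions of the transposase Tn5. The libraries form 8 groups of 2. Each line received 100 nM ACBI-1 or the vehicle DMSO. The groups were MOLT4 ACBI-1 and MOLT4 DMSO after 24 h and after 3 h, and DND41 ACBI-1 and DND41 DMSO after the same times. The labels give no genetic change in any group. Whether the 2 libraries of a group are separate cultures is not stated, and the p-values below rest on the spread among these libraries, part of which may be technical.

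SWI/SNF (BAF) complexes use the ATPase SMARCA4 or SMARCA2 to slide and evict nucleosomes, which keeps many enhancers open. ACBI-1 is a degrader that joins the bromodomains of SMARCA2, SMARCA4 and PBRM1 to the VHL ubiquitin ligase. IGF2R is the cation-independent mannose 6-phosphate receptor, which sorts lysosomal enzymes and clears the growth factor IGF2. PIEZO1 is a mechanically gated cation channel used by T cells among many other cells. CHST11 is a Golgi sulfotransferase that adds 4-O-sulfate to chondroitin. DGKZ is the diacylglycerol kinase that dampens signalling below the T-cell receptor. LZTS1 is a leucine zipper protein described as a tumour suppressor.

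To show what kind of sequence these genes start from, the promoters of 3 of the loci are printed from RefSeq (GRCh38.p14), from 250 bases before to 50 bases after the gene start, 5′ to 3′ on the gene's own strand. IGF2R lies at chr6:159968832-159969131 (plus strand), CHST11 at chr12:104456698-104456997 (plus strand) and PIEZO1 at chr16:88785171-88785470 (minus strand). Capitals mark the E-box, CACGTG. In the PIEZO1 line they mark TATAAA, the TATA box. Both motifs were chosen after the sequences were seen.
IGF2R: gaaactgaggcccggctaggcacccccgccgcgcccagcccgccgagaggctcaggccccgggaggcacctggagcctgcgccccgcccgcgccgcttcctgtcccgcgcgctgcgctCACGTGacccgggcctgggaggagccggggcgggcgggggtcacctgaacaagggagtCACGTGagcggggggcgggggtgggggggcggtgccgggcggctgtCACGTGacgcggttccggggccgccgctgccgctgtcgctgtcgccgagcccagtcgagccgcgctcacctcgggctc
CHST11: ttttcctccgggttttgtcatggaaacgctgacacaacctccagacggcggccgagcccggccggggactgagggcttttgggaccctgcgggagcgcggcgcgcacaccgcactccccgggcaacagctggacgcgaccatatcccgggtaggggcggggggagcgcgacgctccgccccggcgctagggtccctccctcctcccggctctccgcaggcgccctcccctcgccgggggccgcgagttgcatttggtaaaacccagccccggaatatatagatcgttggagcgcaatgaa
PIEZO1: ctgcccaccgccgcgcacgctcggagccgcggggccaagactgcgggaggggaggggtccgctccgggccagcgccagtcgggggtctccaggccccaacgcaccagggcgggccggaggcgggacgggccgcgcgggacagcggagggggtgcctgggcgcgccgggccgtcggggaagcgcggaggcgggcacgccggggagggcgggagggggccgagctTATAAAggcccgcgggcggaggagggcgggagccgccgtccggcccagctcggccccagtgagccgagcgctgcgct
All 3 are rich in CpG. GC content was 78.7% at IGF2R, 68.3% at CHST11 and 81.0% at PIEZO1, beside a median of 58.7% over the 35116 promoters of the table. IGF2R had 41 CpG dinucleotides, CHST11 34 and PIEZO1 44, beside a median of 14. The IGF2R promoter held 3 copies of CACGTG, which reads the same on both strands. Of all promoters, 0.094% held at least 3 copies and 7.26% held any. The PIEZO1 promoter held 1 copy of TATAAA, which 11.5% of promoters held on either strand, and the CHST11 promoter held neither motif. GGGCGG, the GC box, occurred 6 times at IGF2R, 2 times at CHST11 and 4 times at PIEZO1, and in 45% of all promoters. The table lists 3 promoters for DGKZ, with GC contents of 73.7%, 58.7% and 79.3%. These letters describe the promoters only. The peak lists are on hg19, and no hg19 annotation was used here. Whether a site covers a promoter, an exon or an intron was not determined.

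Peaks were called once per library, and the lists give positions without heights. A site either has a peak in a library or has none, and the peak width in base pairs (bp) is the remaining measure. ACBI-1 lists held 26145 to 33870 peaks, against 39117 to 46712 in DMSO lists. Read depth is unknown, and whether list length moves with depth was not tested. The groups are those of the sample titles, whose line the code inside the peak names matched in 16 of 16 libraries. The cell line field of the labels names the other line in 8 of 16. A tag inside the peak names differs between the 24 h and the 3 h libraries, so time and a difference in preparation or peak calling cannot be told apart. The labelled cell type was not checked against marker genes, since none lies in these windows.

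The 5 windows together had a peak at 30.8 ± 3.20 sites per ACBI-1 library (range 24 to 34) and at 53.3 ± 3.58 sites per DMSO library (range 49 to 59; SD, n = 8 each). No ACBI-1 library reached the lowest DMSO library. The ACBI-1 mean was 57.7% of the DMSO mean; over all regions of the genome it was 72.1%. The window means were 5.38 ± 1.77 ACBI-1 and 9.25 ± 1.49 DMSO sites at IGF2R, 11.3 ± 2.55 and 20.0 ± 2.07 at CHST11, and 3 ± 1.51 and 6.25 ± 1.28 at LZTS1, ACBI-1 before DMSO each time. At DGKZ they were 5.38 ± 0.916 in ACBI-1 and 8.5 ± 1.2 in DMSO libraries, and at PIEZO1 5.75 ± 1.49 in ACBI-1 and 9.25 ± 1.67 in DMSO libraries. Only the CHST11 ranges were apart over all libraries, at 8 to 14 sites with ACBI-1 against 18 to 24 with DMSO. The ranges of the other 4 windows touched or overlapped. The treated lists are shorter, and with every list shortened to its 26145 widest peaks the mean differences were smaller, ACBI-1 minus DMSO: -2.88 sites at IGF2R, -3.13 at CHST11, -1.75 at LZTS1, -1.13 at DGKZ and -1.38 at PIEZO1, beside -3.88, -8.75, -3.25, -3.13 and -3.50 in the full lists.

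**Figure D1:**
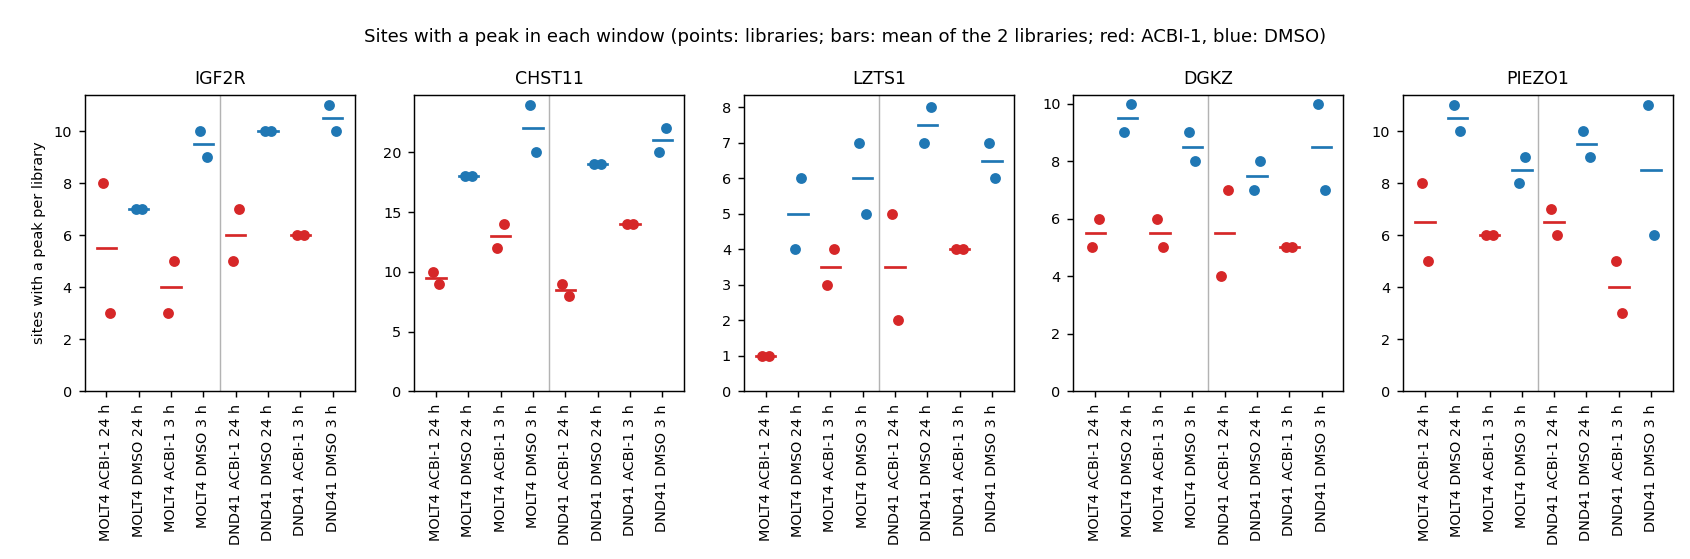
Number of sites with a peak (vertical axis) in each library of the 8 groups (horizontal axis), 1 panel per window. Points are libraries, bars the mean of the 2 libraries of a group, red ACBI-1 and blue DMSO; at CHST11 the ACBI-1 libraries sit between 8 and 14 and the DMSO libraries between 18 and 24, and at LZTS1 both 24 h ACBI-1 libraries of MOLT4 had 1 site.

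A site was called lost in a line when it had a peak in at least 3 of the 4 DMSO and at most 1 of the 4 ACBI-1 libraries, and kept when it had a peak in at least 3 of 4 of both. In MOLT4, 19 of 47 DMSO sites of the windows (40.4%) were lost, where 26.7% of all regions met the rule, and 22 (46.8%) were kept, where 59.9% did. In DND41, 20 of 52 (38.5%) were lost, where 26.1% of all regions met the rule, and 20 (38.5%) were kept, where 61.1% did. Nothing is read from these pairs of shares, because the loci were chosen by this contrast. The opposite change, a peak in at least 3 of 4 ACBI-1 and at most 1 of 4 DMSO libraries, occurred at 0 sites in both lines, where 2.65% of the regions found in at least 3 ACBI-1 libraries met it in MOLT4 and 2.3% in DND41. At the single time of 24 h in DND41, 2 of the 17 sites with a peak in both ACBI-1 libraries (11.8%) had one in neither DMSO library, where 5.3% of all such regions did.

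Sites found with DMSO in both lines numbered 39, and 8 of them (20.5%) were lost in both lines, where 8.38% of all such regions were. The 8 were 1 site at IGF2R, 4 at CHST11, 1 at DGKZ and 2 at PIEZO1. A further 15 (38.5%, where 64.9% of all such regions were) were kept in both lines: 3 at IGF2R, 6 at CHST11, 1 at LZTS1, 2 at DGKZ and 3 at PIEZO1. Peaks in all 16 libraries marked 9 sites, 9 of the 42 (21.4%) found in at least 8 libraries, where 42.5% of such regions, or 9.16% of all regions, had a peak in all 16. Of the 92 sites, 21 (22.8%) had a peak in 1 library, 7 (7.61%) in 2 or 3, and 64 (69.6%) in at least 4, where 51%, 14.7% and 34.3% of all regions did. The counts changed when 1 library was left out, which also loosened the rules, and with list length. Without DND41 ACBI-1 3 h replicate 1, when at most 1 of 3 ACBI-1 libraries could hold a peak, 31 sites were lost in DND41 and 13 in both lines. Without DND41 ACBI-1 3 h replicate 2, 13 were also lost in both. Without DND41 ACBI-1 24 h replicate 2, when a peak in 2 of 3 ACBI-1 libraries was enough, 31 were kept in DND41. Without replicate 1 of that group, 30 were kept. In lists of equal length, 9 sites were lost in MOLT4, 8 in DND41 and 2 in both.

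**Figure D2:**
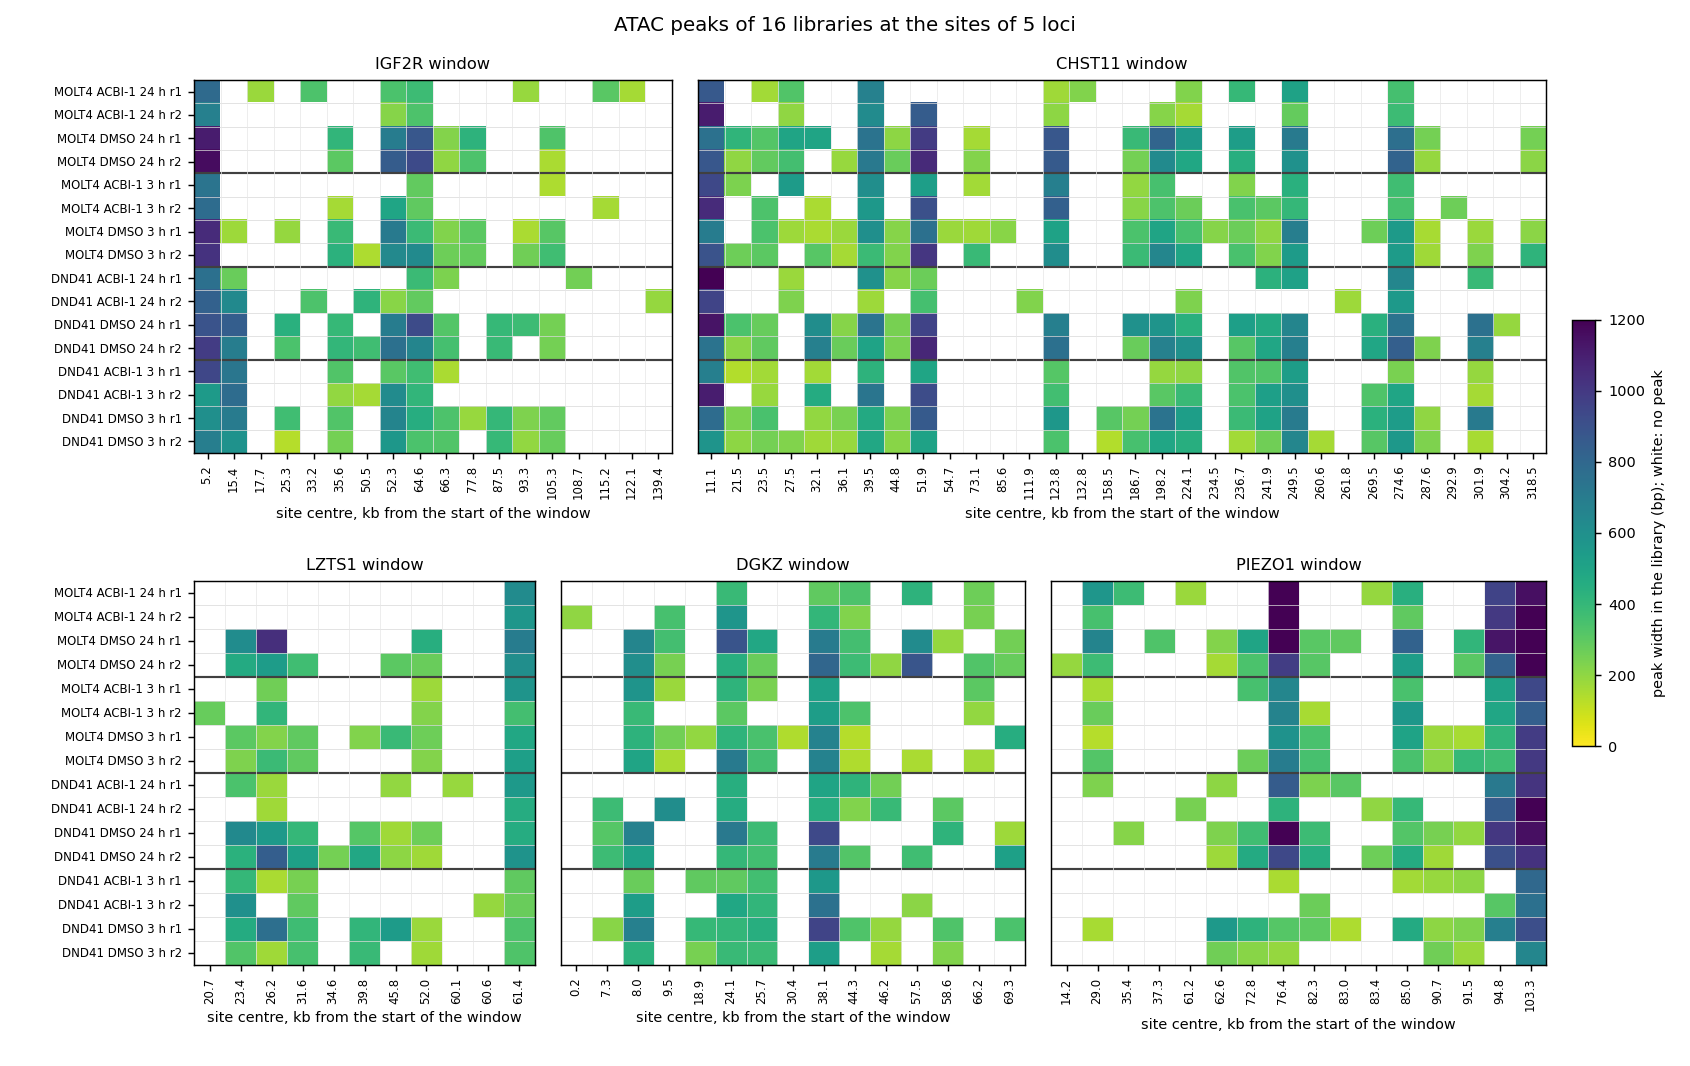
Each column is a site, labelled with the distance of its centre from the start of its window (kb), and each row a library (r1 and r2 are the 2 libraries of a group). Colour is the peak width in that library (bp), and white means no peak; in every window, filled columns through all 16 rows stand beside columns filled in DMSO rows only or mostly.

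IGF2R, the mannose 6-phosphate receptor locus, kept its most upstream site in every library while several sites further into the window were found mainly with DMSO. Sites are named here by the distance of their centre from the start of the window. The site at 5.2 kb (chr6:160389586-160390808) measured 785 and 678 bp in MOLT4 with ACBI-1 at 24 h, against 1109 and 1161 bp with DMSO, and 739 and 778 bp at 3 h, against 1054 and 1023 bp with DMSO. In DND41 it measured 757 and 829 bp with ACBI-1 at 24 h, against 892 and 988 bp with DMSO, and 943 and 548 bp at 3 h, against 602 and 686 bp. All 4 MOLT4 ACBI-1 peaks were narrower than all 4 MOLT4 DMSO peaks, and in DND41 this held at 24 h, whereas at 3 h the groups overlapped. The site at 64.6 kb (chr6:160449170-160450099) also had a peak in all 16 libraries, of 343 ± 48.2 bp with ACBI-1 and 648 ± 242 bp with DMSO (SD, n = 8 each).

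The IGF2R site at 105.3 kb (chr6:160490131-160490509) was found in all 8 DMSO libraries and in 1 of 8 ACBI-1 libraries. Its only ACBI-1 peak was 148 bp in MOLT4 at 3 h, against 312 and 370 bp with DMSO in the same line and time. The other DMSO peaks were 329 and 154 bp in MOLT4 at 24 h, 250 and 249 bp in DND41 at 24 h, and 287 and 277 bp in DND41 at 3 h. Peaks in all 8 DMSO and at most 1 ACBI-1 library occurred at 2 of 28 sites found in all 8 DMSO libraries (7.14%), where 2.96% of all such regions had this pattern; the other was in the CHST11 window. The rule for loss was met in MOLT4 alone at 35.6, 66.3 and 77.8 kb, and in DND41 alone at 25.3, 87.5 and 93.3 kb. At 35.6 and 66.3 kb DND41 had 4 of 4 DMSO and 2 of 4 ACBI-1 peaks. At 77.8 kb DND41 had a peak in 1 of 4 DMSO libraries, too few for the rule. MOLT4 had DMSO peaks in 1, 0 and 2 of 4 libraries at 25.3, 87.5 and 93.3 kb in turn, also too few for the rule. The 87.5 kb site (chr6:160472322-160472762) had peaks of 398 and 388 bp at 24 h and 400 and 395 bp at 3 h in DND41 with DMSO, and no peak in any other library. Thus a peak there was seen only in DND41 with DMSO, and it was too rare for a test between lines. At 35.6 kb (chr6:160420348-160420802), DND41 lacked the peak in both 24 h ACBI-1 libraries and had peaks of 328 and 193 bp at 3 h, while its DMSO peaks were 394 and 404 bp at 24 h and 328 and 251 bp at 3 h.

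PIEZO1, the mechanosensitive channel locus, kept 3 broad sites in both lines, at 76.4, 94.8 and 103.3 kb. Whether these sites lie within the PIEZO1 gene was not determined. The 103.3 kb site (chr16:88877626-88879038) was the broadest in untreated cells of the 9 sites with a peak in all 16 libraries. It measured 989 ± 184 bp with ACBI-1 and 1039 ± 212 bp with DMSO (SD, n = 8 each). The log2 ratio was -0.06, where the median over the 12037 regions with a peak in all 16 libraries was -0.12. Around them, sites at 72.8 kb (chr16:88847582-88848112) and 91.5 kb (chr16:88866248-88866705) were lost in both lines. The 72.8 kb site had 1 ACBI-1 peak, of 351 bp in MOLT4 at 3 h, where 1 of 2 DMSO libraries had a peak, of 270 bp. Its other DMSO peaks were 497 and 340 bp in MOLT4 at 24 h, 367 and 467 bp in DND41 at 24 h, and 424 and 214 bp in DND41 at 3 h. The 91.5 kb site had 1 ACBI-1 peak of 203 bp in DND41 at 3 h, against 231 and 182 bp with DMSO. Its other DMSO peaks were 195 bp in 1 of 2 DND41 libraries at 24 h, 412 and 309 bp in MOLT4 at 24 h, and 156 and 396 bp in MOLT4 at 3 h. The rule for loss was met in MOLT4 alone at 82.3 kb, and in DND41 alone at 62.6 and 90.7 kb. At 82.3 kb DND41 had 3 of 4 DMSO and 2 of 4 ACBI-1 peaks. At 62.6 and 90.7 kb MOLT4 had 2 of 4 DMSO peaks, too few for the rule, and 0 of 4 ACBI-1 peaks.

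The second broad PIEZO1 site, at 76.4 kb (chr16:88850433-88852272), was wider at 24 h than at 3 h in both lines, with or without ACBI-1. It measured 1467 and 1547 bp in MOLT4 with ACBI-1 at 24 h, against 1698 and 980 bp with DMSO, and 649 and 661 bp at 3 h, against 589 and 698 bp with DMSO. In DND41 it measured 853 and 424 bp with ACBI-1 at 24 h, against 1309 and 940 bp with DMSO, and 152 bp in 1 of 2 libraries at 3 h, against 315 and 192 bp with DMSO. Within each line, all 24 h peaks were wider than all 3 h peaks. The 3 h ACBI-1 libraries of DND41 had 5 and 3 sites in the window, against 11 and 6 in the DMSO libraries of that time, and 3 was the lowest number of the 16 libraries.

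CHST11, the chondroitin sulfotransferase locus, was the longest window and held 4 of the 8 sites lost in both lines, at 21.5, 36.1, 44.8 and 287.6 kb. It also held 16 of the 39 sites found with DMSO in both lines. The site at 44.8 kb (chr12:104884693-104885007) had a single ACBI-1 peak, 218 bp in DND41 at 24 h, against 247 and 240 bp with DMSO. In the other DMSO libraries it measured 202 and 276 bp in MOLT4 at 24 h, 220 and 227 bp in MOLT4 at 3 h, and 239 and 213 bp in DND41 at 3 h. The sites at 36.1 kb (chr12:104875993-104876272) and 287.6 kb (chr12:105127464-105127836) had 0 of 8 ACBI-1 peaks and 7 of 8 DMSO peaks each. At 36.1 kb the missing DMSO peak was in MOLT4 at 24 h, and at 287.6 kb it was in DND41 at 24 h. The site at 21.5 kb (chr12:104861235-104861785) had ACBI-1 peaks of 239 bp in MOLT4 and 138 bp in DND41, both at 3 h, and was lacking in 1 DMSO library, MOLT4 at 3 h. Loss was met in MOLT4 alone at 32.1, 73.1 and 318.5 kb, and in DND41 alone at 186.7 and 269.5 kb. DND41 had 0 of 4 DMSO peaks at 73.1 and 318.5 kb, and MOLT4 had 1 of 4 at 269.5 kb, too few for the rule.

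In the same window CHST11 kept sites at 11.1, 39.5, 51.9, 224.1, 249.5 and 274.6 kb. The site at 11.1 kb (chr12:104850264-104851902) measured 865 and 1109 bp in MOLT4 with ACBI-1 at 24 h, against 750 and 876 bp with DMSO, and 938 and 1050 bp at 3 h, against 696 and 892 bp with DMSO. In DND41 it measured 1363 and 954 bp with ACBI-1 at 24 h, against 1137 and 744 bp with DMSO, and 680 and 1103 bp at 3 h, against 777 and 578 bp. The mean was 1008 ± 201 bp with ACBI-1 and 806 ± 166 bp with DMSO (SD, n = 8 each), with overlapping ranges. Its log2 ratio of 0.32 was the only one above 0 among the 9 sites found in all 16 libraries. The site at 274.6 kb (chr12:105113948-105115160) had the opposite sign, with 423 ± 132 bp with ACBI-1 and 668 ± 133 bp with DMSO and a log2 ratio of -0.69. At 27.5 kb (chr12:104867181-104867801) the peak was found in 5 ACBI-1 and 4 DMSO libraries. It was the only one of 42 sites found in at least 8 libraries with more ACBI-1 than DMSO peaks, where 5.72% of such regions had more.

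Several CHST11 sites had lost their peak in DND41 at 24 h and still had it at 3 h. Among the 42 sites of the windows with a peak in all 4 DND41 DMSO libraries, 9 (21.4%) had a peak in neither 24 h ACBI-1 library and in both 3 h ACBI-1 libraries, where 6.89% of all such regions did. Of the 9, 5 were in CHST11, at 23.5, 32.1, 123.8, 198.2 and 236.7 kb. That window held 18 of the 42 sites. The reverse, peaks in both 24 h libraries and neither 3 h library, occurred at 0 sites, where 1.12% of regions did. The 123.8 kb site (chr12:104963298-104964240) was absent from DND41 with ACBI-1 at 24 h, against 682 and 758 bp with DMSO, and 318 and 365 bp at 3 h, against 563 and 339 bp with DMSO. In MOLT4 it measured 169 and 202 bp with ACBI-1 at 24 h, against 876 and 860 bp with DMSO, and 684 and 831 bp at 3 h, against 507 and 610 bp with DMSO. Thus in MOLT4 the peak remained at 24 h but both ACBI-1 peaks were narrower than every other MOLT4 peak at the site, and at 3 h the ACBI-1 peaks were the wider ones. In MOLT4, 4 of 39 sites (10.3%) had the late pattern, where 8.67% of regions did, and 0 had the reverse, where 0.957% did.

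The remaining sites with a peak in all 4 DMSO libraries of a line followed other courses. In MOLT4, 7 of the 39 (17.9%) had no ACBI-1 peak at either time, where 8.88% of regions had none, and 15 had all 4, where 58.8% did. In DND41, 8 of the 42 (19%) had no ACBI-1 peak, where 7.99% of regions had none, and 11 had all 4, where 60.4% did. Counting any difference, 12 MOLT4 sites (30.8%) had fewer ACBI-1 peaks at 24 h than at 3 h and 3 (7.69%) had more, where 23.2% and 5.94% of regions did. In DND41, 18 sites (42.9%) had fewer and 4 (9.52%) had more, where 20.9% and 7.26% of regions did. Of the 18 with fewer, 11 were at CHST11, a window that held 18 of the 42 sites.

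DGKZ, the diacylglycerol kinase locus, kept sites at 24.1 kb (chr11:46368606-46369524) and 38.1 kb (chr11:46382614-46383673) in all 16 libraries. The 38.1 kb site measured 293 and 405 bp in MOLT4 with ACBI-1 at 24 h, against 703 and 803 bp with DMSO, and 514 and 533 bp at 3 h, against 670 and 670 bp with DMSO. In DND41 it measured 500 and 454 bp with ACBI-1 at 24 h, against 935 and 700 bp with DMSO, and 558 and 753 bp at 3 h, against 956 and 525 bp. The ACBI-1 peaks were narrower in every library pair of a group except in DND41 at 3 h, where the groups overlapped. The site of this window lost in both lines, at 69.3 kb (chr11:46414028-46414546), had no ACBI-1 peak in any of 8 libraries. Whether this site lies within the DGKZ gene was not determined. Its DMSO peaks were 255 and 280 bp in MOLT4 at 24 h and 451 bp in 1 of 2 at 3 h, and 177 and 519 bp in DND41 at 24 h and 340 bp in 1 of 2 at 3 h.

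Another DGKZ site, at 8.0 kb (chr11:46352607-46353318), had ACBI-1 peaks at 3 h and not at 24 h. With ACBI-1 at 24 h it had no peak in either line, against DMSO peaks of 656 and 609 bp in MOLT4 and 673 and 511 bp in DND41. At 3 h the ACBI-1 peaks were 578 and 387 bp in MOLT4, against 426 and 501 bp with DMSO, and 275 and 531 bp in DND41, against 675 and 431 bp with DMSO. The groups were therefore apart at 24 h and overlapped at 3 h in both lines. The site at 25.7 kb (chr11:46370365-46370936) followed the same course in DND41, with none of its ACBI-1 peaks at 24 h and 361 and 408 bp at 3 h, against DMSO peaks of 376 and 362 bp at 24 h and 448 and 380 bp at 3 h. In MOLT4 it had 1 ACBI-1 peak, of 240 bp at 3 h, and 4 DMSO peaks. The rule for loss was also met in MOLT4 alone at 57.5 kb, and in DND41 alone at 7.3 and 58.6 kb. At 57.5 kb DND41 had 1 of 4 DMSO peaks. MOLT4 had 0 of 4 DMSO peaks at 7.3 kb and 1 of 4 at 58.6 kb. These DMSO counts were too few for the rule.

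LZTS1, the leucine zipper suppressor locus, had 1 and 1 site with a peak in MOLT4 with ACBI-1 at 24 h, against 4 and 6 sites with DMSO. The remaining site was at 61.4 kb (chr8:20161095-20161802), which had a peak in all 16 libraries, of 464 ± 138 bp with ACBI-1 and 502 ± 128 bp with DMSO (SD, n = 8 each). At 3 h MOLT4 had 3 and 4 sites with ACBI-1, against 7 and 5 with DMSO. DND41 had 5 and 2 sites with ACBI-1 at 24 h, against 7 and 8, and 4 and 4 at 3 h, against 7 and 6. The widest DMSO peak of the window, 1038 bp at 26.2 kb (chr8:20125703-20126794) in MOLT4 at 24 h, had 538 bp in the other DMSO library and no peak in both ACBI-1 libraries. At 3 h that site measured 260 and 411 bp with ACBI-1, against 224 and 382 bp with DMSO, so it overlapped then and was apart at 24 h.

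At 23.4 kb (chr8:20123051-20123685) LZTS1 had a site that was lost in MOLT4 and kept in DND41, 1 of the 39 found with DMSO in both lines (2.56%), where 3.94% of all such regions had this pattern. MOLT4 had 0 of 4 ACBI-1 peaks, against 616 and 465 bp with DMSO at 24 h and 304 and 231 bp at 3 h. DND41 had 341 bp in 1 of 2 ACBI-1 libraries at 24 h, against 632 and 435 bp with DMSO, and 401 and 598 bp at 3 h, against 463 and 325 bp with DMSO. The site at 52.0 kb (chr8:20151761-20152208) went the other way without meeting the rule for kept in MOLT4. There it was absent with ACBI-1 at 24 h and measured 176 and 222 bp at 3 h, against DMSO peaks of 448 and 272 bp at 24 h and 265 and 224 bp at 3 h, while DND41 had 0 of 4 ACBI-1 peaks and 4 of 4 DMSO peaks. Loss was also met in MOLT4 alone at 31.6 kb, where DND41 had 4 of 4 DMSO and 2 of 4 ACBI-1 peaks. It was met in DND41 alone at 39.8 and 45.8 kb, where MOLT4 had 1 and 2 of 4 DMSO peaks, too few for the rule. Of the 39 sites, 0 were lost in DND41 and kept in MOLT4, where 4.03% of such regions were. Both counts are near the share of all regions. The difference in treatment effect between lines was tested for the clusters of sites below, and not for single sites.

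Over the 5 windows together, fewer of the sites open in all 8 DMSO libraries had a peak with ACBI-1 at 24 h than at 3 h. Of 28 such sites, 16 and 16 had a peak in the 24 h ACBI-1 libraries of MOLT4 (57.1% each), against 21 and 23 in those of 3 h (75.0% and 82.1%). In DND41, 16 and 14 had a peak at 24 h (57.1% and 50%), against 24 and 21 at 3 h (85.7% and 75.0%). The times did not overlap in either line for the windows together. They did not part in every window. At PIEZO1, both of its 2 such sites had a peak in all 4 24 h ACBI-1 libraries, and 1 of the 2 lacked it in 1 DND41 library of 3 h. At LZTS1 in DND41, 3 and 2 of 4 sites had a peak at both times, and at IGF2R in MOLT4 it was 3 and 3 of 6 at 24 h, against 3 and 4 at 3 h. Over all 18483 regions found in all 8 DMSO libraries, 79.5% to 81.8% had a peak in the 24 h ACBI-1 libraries and 86.6% to 92.2% in those of 3 h. The order of the times was the same there. Loss at a single time, both DMSO and neither ACBI-1 library, was met in MOLT4 by 20 of 45 sites at 24 h (44.4%, where 27.7% of all regions met it) and 12 of 46 at 3 h (26.1%, where 22.2% did). In DND41 it was met by 21 of 48 at 24 h (43.8%, where 27.1% of all regions met it) and 15 of 49 at 3 h (30.6%, where 20.9% did).

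**Figure D3:**
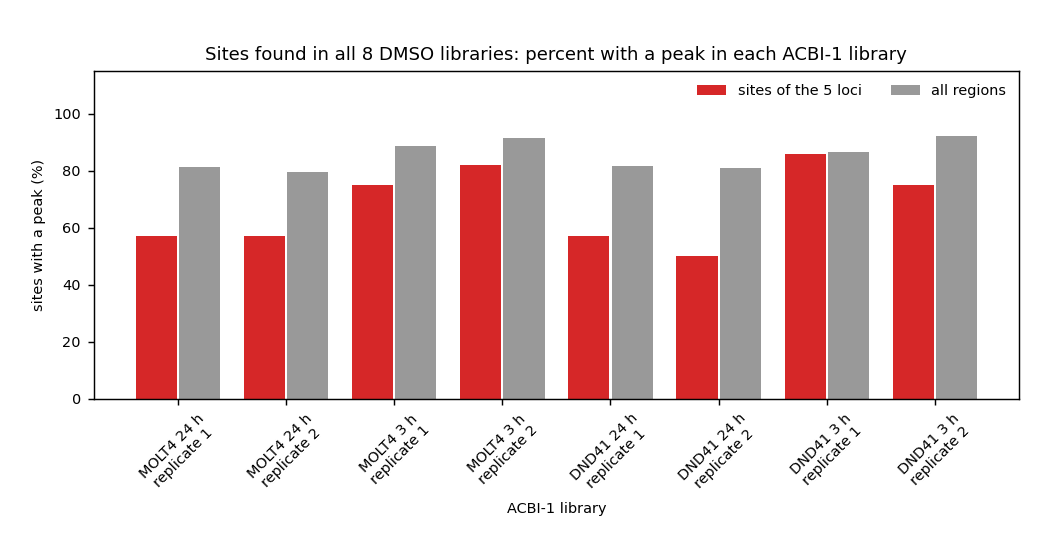
Percent of sites found in all 8 DMSO libraries that had a peak in each ACBI-1 library (horizontal axis), for the 28 sites of the 5 loci (red) and all 18483 such regions (grey). The red bars stand at 50% to 57.1% in the 24 h libraries and at 75.0% to 85.7% in the 3 h libraries.

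Sites kept in both lines were broader with DMSO than sites lost in both, as in the genome. The median DMSO width was 267 bp for the 8 sites lost in both lines (range 205 to 368 bp) and 696 bp for the 15 kept in both (range 486 to 1039 bp), and these ranges did not overlap. Over all regions the medians of the same classes were 302.5 bp for 1901 lost and 682.5 bp for 14731 kept regions. The 7 sites found with DMSO in both lines but lost in MOLT4 alone had a median of 371 bp, where the 1642 regions of that class had 372 bp, and the 2 lost in DND41 alone had 301 bp, where 1734 regions had 378 bp. Between classes set by a single line the ranges overlapped, with widths averaged over the DMSO peaks of both lines. Widths from the DMSO libraries of that line alone were not compared. DMSO width ran from 205 to 506 bp for sites lost in MOLT4 and from 277 to 1039 bp for sites kept there, and from 205 to 395 bp for sites lost in DND41 and from 359 to 1039 bp for sites kept there. No test was run, since presence and width come from the same peak calls. The 8 sites lost in both lines lay 2.8 to 40.0 kb (median 11.6 kb) from the nearest region with a peak in all 16 libraries, inside or outside the window. The 15 kept in both lines lay 7.2 to 234.1 kb (median 27.2 kb) from the nearest other such region. The 9 sites with a peak in all 16 libraries are among the 15 and were not measured to themselves. The distances of lost and kept sites are therefore not comparable.

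**Figure D4:**
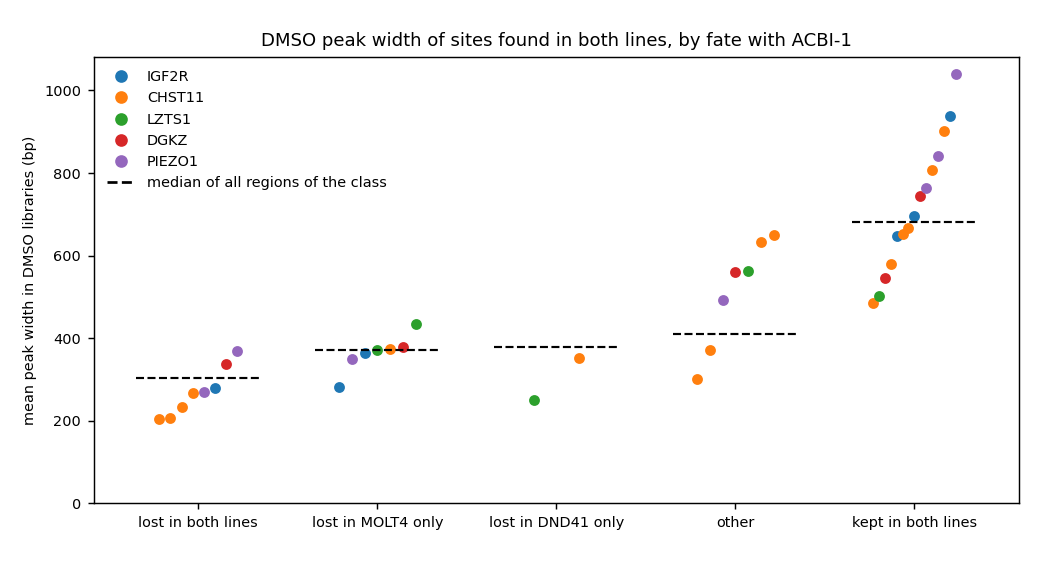
Mean peak width in the DMSO libraries (vertical axis, bp) of the 39 sites found with DMSO in both lines, grouped by what happened with ACBI-1 (horizontal axis), coloured by locus. Points within a class are spread sideways by width, and dashed lines are the medians of all regions of the class; the 8 sites lost in both lines lie between 205 and 368 bp and the 15 kept in both between 486 and 1039 bp.

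Differences between the lines, which are not the contrast the loci were chosen by, were tested for each region by exchanging line labels within time and treatment (two-sided exact permutation test over 1296 relabelings). The p-values were Benjamini-Hochberg adjusted over the 11709 regions that could reach p 0.05. A peak was more frequent in MOLT4 at 4783 of these (40.8%) and in DND41 at 2731 (23.3%). Of the 92 sites, 9 could be tested, and 3 were more frequent in MOLT4 and 2 in DND41. The IGF2R site at 15.4 kb (chr6:160399991-160400871) had a peak in 1 of 8 MOLT4 libraries and in 8 of 8 DND41 libraries (exact permutation p = 0.00463, adjusted p = 0.0184). Its MOLT4 peak was 178 bp with DMSO at 3 h. The DND41 peaks were 274 and 631 bp with ACBI-1 at 24 h, against 842 and 692 bp with DMSO, and 727 and 774 bp at 3 h, against 703 and 588 bp. It thus met the rule for a kept site in DND41 and had 1 peak in MOLT4.

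The other DND41 site was at CHST11, at 301.9 kb (chr12:105141561-105142311), with a peak in 2 of 8 MOLT4 and 7 of 8 DND41 libraries (exact permutation p = 0.0278, adjusted p = 0.0433). Among sites more frequent in MOLT4, the PIEZO1 site at 29.0 kb (chr16:88803672-88804331) had a peak in 8 of 8 MOLT4 and 2 of 8 DND41 libraries, and the DGKZ site at 66.2 kb (chr11:46410913-46411446) in 6 of 8 MOLT4 and 0 of 8 DND41 libraries (both exact permutation p = 0.0139, adjusted p = 0.0311). The CHST11 site at 73.1 kb (chr12:104912918-104913330) had a peak in 5 of 8 MOLT4 and 0 of 8 DND41 libraries (exact permutation p = 0.0278, adjusted p = 0.0433). These were 4 of 4 DMSO and 1 of 4 ACBI-1 libraries of MOLT4, so the site met the rule for loss there. The DGKZ site had a peak in 4 of 4 ACBI-1 and 2 of 4 DMSO libraries of MOLT4. The PIEZO1 site measured 570 and 347 bp in MOLT4 with ACBI-1 at 24 h, against 660 and 375 bp with DMSO, and 155 and 275 bp at 3 h, against 132 and 319 bp with DMSO. The DND41 peaks were 231 bp with ACBI-1 at 24 h and 156 bp with DMSO at 3 h. In MOLT4 its ACBI-1 and DMSO widths overlapped at both times. The number of calls changed with the lists. With only peaks of at least 170 bp, 1 site was called in each direction, and in lists of equal length 0 in MOLT4 and 4 in DND41.

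Neighbouring regions were also tested as clusters. A cluster held at least 3 regions, each present in 4 libraries or more, with gaps below a fixed limit. The windows held 8 clusters, with gaps of up to 12.3 kb, of which 5 could reach p 0.05 between lines. Over the 1807 clusters of the genome that could, 441 (24.4%) had more sites with a peak in MOLT4 and 308 (17%) more in DND41. The first IGF2R cluster, of 4 sites from 4.6 to 35.8 kb, had a peak at 1.88 ± 0.991 sites per MOLT4 library and 3.25 ± 0.886 per DND41 library (SD, n = 8 each), a difference of -1.38 (exact permutation p = 0.00463, adjusted p = 0.0181). The adjusted p was 0.0975 when labels were exchanged over all 16 libraries regardless of time and treatment. This cluster includes the IGF2R site at 15.4 kb called above, which alone differed by -0.875 sites per library. The cluster and site results are therefore not independent. No value was available for this cluster in lists of equal length or with the 5 kb gap. The LZTS1 cluster of 7 sites had 3.75 ± 2.19 in MOLT4 and 5 ± 2 in DND41 libraries, a difference of -1.25 that missed the threshold (exact permutation p = 0.037, adjusted p = 0.0746). It passed the exact permutation test in lists of equal length (adjusted p = 0.0286). It also passed without MOLT4 DMSO 3 h replicate 1 (exact permutation, adjusted p = 0.0303) or DND41 ACBI-1 3 h replicate 2 (adjusted p = 0.0393). The second IGF2R cluster, the DGKZ cluster and the PIEZO1 cluster differed between lines by -0.50, 0.38 and 0 sites (adjusted p = 0.277, 0.790 and 1, exact permutation tests).

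The effect of ACBI-1 on the number of sites was not shown to differ between lines or times at any cluster. Of 1807 clusters, 0 were called for a different effect in MOLT4 than in DND41, with 50 at an unadjusted exact permutation p under 0.05. Of 1212 clusters, 0 were called for a different effect at 24 h than at 3 h, with 53 at an unadjusted p under 0.05. Both tests exchanged line or time labels, which also removes a line or time difference common to both treatments. Such a difference widens the permutation spread. The smallest exact permutation p was 0.00154 before adjustment over all clusters, so 0 calls do not show that the effects were equal. The adjusted p was 1 for every testable cluster of the windows in both tests. The number of sites with a peak at 24 h against 3 h was called at 0 of 1212 clusters (232 at an unadjusted exact permutation p under 0.05) and at 0 of 3762 single regions (589 at an unadjusted p under 0.05). The lowest p in the windows was that of the CHST11 cluster from 223.7 to 249.9 kb, with 2.75 ± 1.04 sites per 24 h library and 3.75 ± 0.707 per 3 h library (SD, n = 8 each; exact permutation p = 0.0648, adjusted p = 0.306).

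Peak width at the 9 sites found in all 16 libraries was tested in the same way over the 12037 such regions. Between lines, 741 (6.16%) were wider in MOLT4 and 375 (3.12%) wider in DND41, and the median log2 difference was 0.04. These 1116 calls fell to between 389 and 453 without 1 of 5 MOLT4 libraries (DMSO 24 h replicate 1, and each ACBI-1 and DMSO library of 3 h), and to 0 with a replicate block. The block allows no exact permutation p below 0.00781 before adjustment, so its 0 calls do not show that the widths were alike. The LZTS1 site at 61.4 kb was the only one of the 9 that was called, at 554 ± 102 bp in MOLT4 and 411 ± 119 bp in DND41 (SD, n = 8 each; log2 difference 0.46, exact permutation p = 0.00154, the smallest that 1296 relabelings allow, adjusted p = 0.0308). The call was lost on leaving out any 1 of 7 libraries: each MOLT4 library of 24 h, DND41 DMSO 24 h replicate 1 and each DND41 ACBI-1 library of 3 h (adjusted p 0.0553 to 0.0743). It was also lost with the replicate block (exact permutation, adjusted p = 0.0832). The PIEZO1 site at 103.3 kb followed at a log2 difference of 0.22 (adjusted p = 0.0572, exact permutation), and it was called only without DND41 ACBI-1 24 h replicate 2 (adjusted p = 0.035).

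Between times, 3704 of the 12037 regions (30.8%) were wider at 24 h and 21 (0.174%) wider at 3 h, with a median log2 difference of 0.20; this test was added after the widths had been seen. Of the 9 sites, 3 were called wider at 24 h. The PIEZO1 site at 103.3 kb measured 1168 ± 106 bp at 24 h and 860 ± 122 bp at 3 h (SD, n = 8 each; log2 difference 0.45, adjusted p = 0.0157, exact permutation). Its ranges, 1019 to 1303 bp and 649 to 999 bp, did not overlap. The LZTS1 site at 61.4 kb measured 569 ± 80.6 bp at 24 h and 397 ± 114 bp at 3 h (log2 difference 0.56, adjusted p = 0.0203, exact permutation, n = 8 each). The CHST11 site at 274.6 kb measured 636 ± 191 bp at 24 h and 454 ± 119 bp at 3 h (log2 difference 0.47, adjusted p = 0.0203, exact permutation, n = 8 each). The CHST11 call was lost without DND41 ACBI-1 24 h replicate 1 (exact permutation, adjusted p = 0.0708) or replicate 2 (adjusted p = 0.0553). It was also lost with peaks merged by midpoints (log2 difference 0.27, exact permutation, adjusted p = 0.0638) and with the replicate block (adjusted p = 0.0602). The DGKZ site at 38.1 kb had the other sign, at 599 ± 220 bp at 24 h and 647 ± 152 bp at 3 h (adjusted p = 0.414, exact permutation, n = 8 each). The shortest peak of a list was 154 to 170 bp at 24 h and 129 to 159 bp at 3 h; the part of this in the width differences was not tested.

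**Figure D5:**
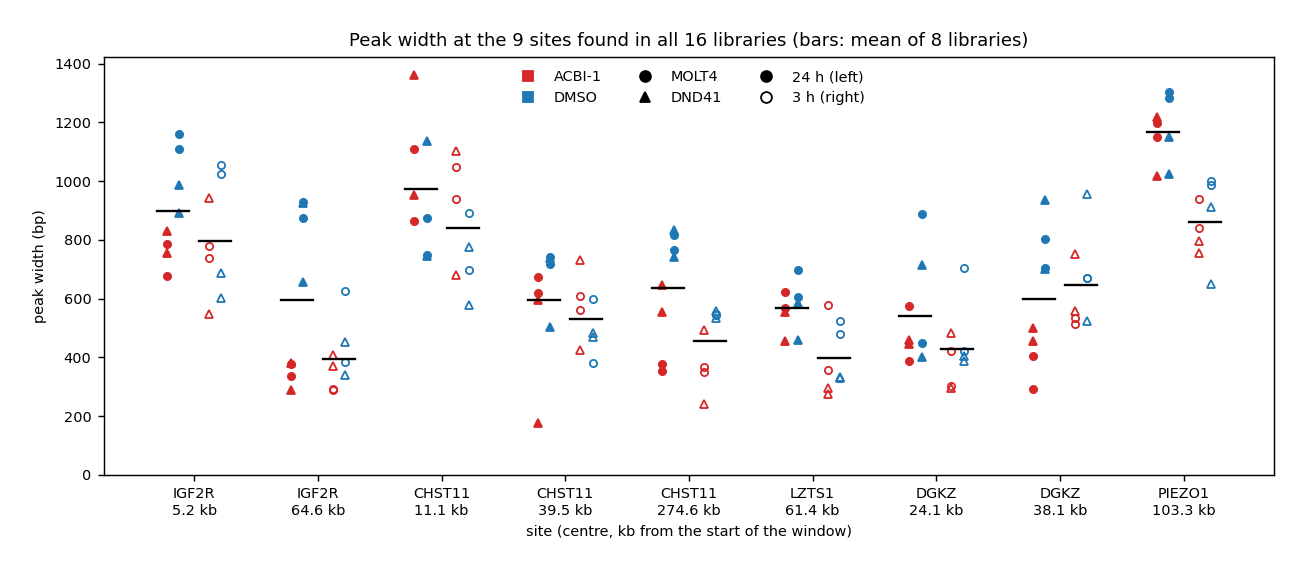
Peak width (vertical axis, bp) at the 9 sites with a peak in all 16 libraries (horizontal axis), 24 h libraries on the left (filled) and 3 h libraries on the right (open) of each site. Red is ACBI-1, blue DMSO, circles MOLT4, triangles DND41, and bars are means of 8 libraries; at the PIEZO1 site the 24 h values (1019 to 1303 bp) all lie above the 3 h values (649 to 999 bp).

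The windows end within the spacing of the sites. At PIEZO1, a region with a peak in all 16 libraries lay 1.7 kb outside the left edge, and the first site inside that edge, at 14.2 kb, had a peak in 1 library. At LZTS1, a region 7.4 kb outside the left edge had a peak in 4 ACBI-1 and 7 DMSO libraries, and at DGKZ one 8 kb outside had a peak in 3 ACBI-1 and 4 DMSO libraries. At CHST11, the nearest region beyond the right edge was 98.8 kb away, and the last site inside, at 318.5 kb (chr12:105158191-105158843), had a peak in all 4 MOLT4 DMSO libraries and in no other library. At IGF2R, a region 21.9 kb outside the left edge had a peak in 1 ACBI-1 and 5 DMSO libraries. RefSeq (GRCh38.p14) places other genes within the loci or overlapping them. AIRN, an antisense RNA, overlaps IGF2R, MIR3922 overlaps CHST11, LZTS1-AS1 overlaps LZTS1 and MIR4688 overlaps DGKZ. CTU2, HSALR1, MIR4722 and PIEZO1-AS1 lie within or overlap PIEZO1. The next protein-coding genes at higher coordinates are CDT1, APRT and GALNS beside PIEZO1, and MDK, CHRM4 and AMBRA1 beside DGKZ. Whether the hg19 windows reach into these neighbours was not determined. A site therefore belongs to a window, and which gene it acts on was not determined.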

How the data were processed

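ATAC-seq libraries of 2 leukaemia lines were deposited as 16 lists of peaks, each giving chromosome, start, end and name. The authors' deposited values are positions in base pairs on hg19, with no count, height or p-value. Per the submitters' processing notes, hg19, Bowtie2, Picard, SAMtools and MACS2 2.1.1.2016030 were named, without settings. Other steps are not given in the sources used here. Files were read with Python 3.11.15, NumPy 2.4.6 and pandas 2.3.3, and figures drawn with matplotlib 3.10.9. Peaks of chromosomes 1 to 22 and X that shared 1 base were merged over all libraries, and peak width was summed over the peaks of a library inside a region. The highest overlap of 2 libraries (shared over joint regions) was 0.694, and no pair was identical. Line, time and interaction contrasts were tested by exact permutation within 4 strata (1296 relabelings, smallest p 0.00154), Benjamini-Hochberg adjusted over all regions or clusters that could reach p 0.05. Only the test of single regions between lines was tried on simulated presence calls. The time, interaction, cluster and width tests were not. An adjusted p under 0.05 was called. Named sites are those found in at least 8 libraries, or in all 4 libraries of 1 line and treatment, plus sites lost in 1 or both lines and sites called between lines. The loci, lists and tests were chosen with earlier results of these data known. Alternatives were a minimum peak width of 170 bp, lists of 26145 peaks, midpoints within 250 bp, regions in at least 2 libraries, a cluster gap of 5 kb, unstratified labels (100000 draws), a replicate block and leaving out each library.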

Additional observations from a re-analysis of the deposited data

How the results depend on the processing

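No result changed direction with a call under any alternative run. In lists of equal length (26145 peaks), ACBI-1 minus DMSO was -3.125 sites at CHST11, -1.75 at LZTS1, -1.125 at DGKZ and -1.375 at PIEZO1; 9 sites were lost in MOLT4, 8 in DND41 and 2 in both lines, 1 was gained in MOLT4, 0 were more frequent in MOLT4 and 4 in DND41, and 370 clusters of the genome differed between lines (749 in the full lists). With peaks of at least 170 bp only, 1 site was gained in MOLT4, 1 was more frequent in MOLT4 and 1 in DND41. With midpoints merged, 1 site was gained in DND41. With unstratified labels, 1 site was more frequent in DND41, as were 1771 regions of the genome (2731 with strata), and 469 clusters differed. With a 5 kb gap, 173 clusters differed. The replicate numbers did not pair the libraries (28 correlations, from -0.052 to 0.02); with the replicate block, whose smallest p is 0.00781, 1 site and 1760 regions were more frequent in DND41, and 0 regions differed in width between lines (1116 without it). The block also put the LZTS1 cluster at an adjusted p of 0.0494, the LZTS1 width between lines at 0.0832 and the CHST11 width between times at 0.0602. Leaving out 1 library gave 0 to 1 sites gained in MOLT4 and 0 to 2 in DND41, 20 to 31 kept and 20 to 31 lost in DND41, 8 to 13 lost in both lines, and 389 to 1121 regions of different width. The smaller list or fewer libraries are part of these alternatives; the cause of the other changes was not tested. With read depth unknown, a missing peak may be a site below the calling threshold.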

Other observations

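The sites found in 1 library were spread over the windows: 4 of 18 at IGF2R, 9 of 32 at CHST11, 4 of 11 at LZTS1, 2 of 15 at DGKZ and 2 of 16 at PIEZO1. The 2 sites with a peak in both ACBI-1 and neither DMSO library of DND41 at 24 h (2 of 17, where 5.3% of all such regions had this pattern) were at CHST11 and DGKZ. The CHST11 site at 27.5 kb measured 182 and 231 bp there with ACBI-1, and in MOLT4 326 and 198 bp with ACBI-1 at 24 h, against 500 and 357 bp with DMSO. The DGKZ site at 46.2 kb (chr11:46390957-46391392), chosen after its values were seen, measured 256 and 392 bp in DND41 with ACBI-1 at 24 h, and had DMSO peaks of 190 and 162 bp in DND41 at 3 h and of 197 bp in 1 MOLT4 library at 24 h.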
